A study of Mus musculus with 39 samples.

Results

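Chemokines are small secreted proteins that attract leukocytes, and their receptors are membrane proteins that mostly signal through G proteins. Ccl2, Ccl7, Ccl8 and Ccl12, the monocyte chemoattractant proteins, draw in monocytes, Ccl2 and Ccl7 mainly through Ccr2. Cxcl1, Cxcl2, Cxcl3 and Cxcl5 carry a glutamate-leucine-arginine (ELR) motif and draw in neutrophils through Cxcr2, and macrophages of an inflamed joint are a known source of both groups. The genes described here are all gene symbols made of Ccl, Cxcl, Ccr or Cxcr, a number and at most 1 further letter. They came to 54 of 23337 symbols, 37 ligands and 17 receptors. Cx3cr1 and the CXC chemokines Pf4 and Ppbp lie outside this definition by their symbols.

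RNA was counted in 39 libraries of sorted mouse cells, 13 groups of 3 libraries. In HUPO mice (Flipflox/floxCD11ccre) the gene Flip (Cflar in the files) is floxed and Cre is expressed under CD11c, a gene of dendritic cells and some macrophages. These mice had established arthritis. Control mice (Flipflox/floxCD11c+) carried the same floxed gene and were littermates or matched animals, and all mice were C57BL/6 animals of 21 to 37 weeks. Each library came from more than 400 cells. Ankles gave synovial macrophages sorted by F4/80, the populations FI1, FI2 and FI3 (intermediate) and FH1 and FH2 (high), with FI2 given for HUPO mice only. The circulating cells were monocytes, classical (CM) or non-classical (NCM). Libraries of low quality, those least like their group among the controls and HUPO FH libraries with neutrophil genes had been removed by the authors, a choice that narrows the spread between the libraries that remain. The number in a library's name was read as the mouse, and several mice gave more than 1 population. In control FI3 and control FH2 some names add a suffix to the number, which is not explained. Such a name was treated as a mouse of its own, apart from the same number without the suffix. Whether it marks pooled animals is unknown, so the spread between libraries of these groups may not be that between single mice.

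Levels are in CPM, counts scaled to a fixed library total, and the values of a group are given library by library, always in the same order, so that a library can be named by its place. Libraries held 3116615 to 14100712 counts, and 3 counts over a group of 3 libraries corresponded to 0.105 to 0.179 CPM. The monocyte and macrophage markers found in the files summed to 11498 CPM or more in every library, and 9 neutrophil markers summed to 17778 to 25960.3 CPM in HUPO FI1 and 16379 to 23081 CPM in control FI1. Cflar, counted over the whole gene and so no measure of the deletion itself, averaged 40.7 ± 27.3 CPM in HUPO FH2 and 219 ± 43.2 CPM in control FH2 (SD, n = 3 each), and had counts in every HUPO library. Its mean was also lower in HUPO FH1 and HUPO FI3 than in their controls. In FI1 it averaged 69.1 ± 32.5 CPM in HUPO and 67.4 ± 41.0 CPM in control mice. In CM it averaged 52.1 ± 28.3 CPM in HUPO and 58.3 ± 5.05 CPM in control mice. In NCM it averaged 47.5 ± 32.3 CPM in HUPO and 21.7 ± 12.8 CPM in control mice. The F4/80 gene (Emr1) averaged 1422 ± 126 CPM in HUPO FH1 and 1283 ± 158 CPM in control FH1, and 192 ± 49.3 CPM in HUPO FI3 and 559 ± 252 CPM in control FI3. CD11c itself (Itgax) had no counts in HUPO CM, HUPO FI1 or control FH1. In sorted bulk samples, fewer cells of a type and less RNA per cell cannot be told apart.

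Of the 54 genes, 42 had at least 1 count somewhere and 12 (10 ligands and 2 receptors) had none. The test was edgeR's quasi-likelihood test, fitted to the 12450 genes that passed its filter on low counts, 35 of the 54 among them (25 ligands and 10 receptors). Genes with a Benjamini-Hochberg adjusted p under 0.05, over all 12450, are those termed called. The other 19 genes, such as the lymphoid ligands Ccl19 and Ccl21a and the lymphocyte receptors Ccr4 and Cxcr5, were too low to be tested. A mean of 10 CPM in at least 1 group was reached by 22 ligands and 9 receptors. Ccl3 and Ccl4 have annotated spans that overlap by 755 bases on opposite strands, and no strand-specific step is given for these libraries, so the split of counts between them is uncertain.

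Many of the genes lie in clusters (mm10 coordinates, from RefSeq's GRCm38.p6 annotation). A group of 6 on chromosome 11 holds Ccl2 (chr11:82035577-82037452, + strand), Ccl7 (chr11:82045712-82047525, + strand) and Ccl8 (chr11:82115185-82116799, + strand), and a group of 5 on the same chromosome holds Ccl9 (chr11:83572917-83578636, - strand) and Ccl6 (chr11:83587886-83593087, - strand). A group of 5 on chromosome 5 holds Cxcl1, Cxcl2 and Cxcl3, and a group of 6 on chromosome 9 holds Ccr1 (chr9:123962126-123968692, - strand) and Ccr2 (chr9:124101918-124109140, + strand).

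**Figure D1:**
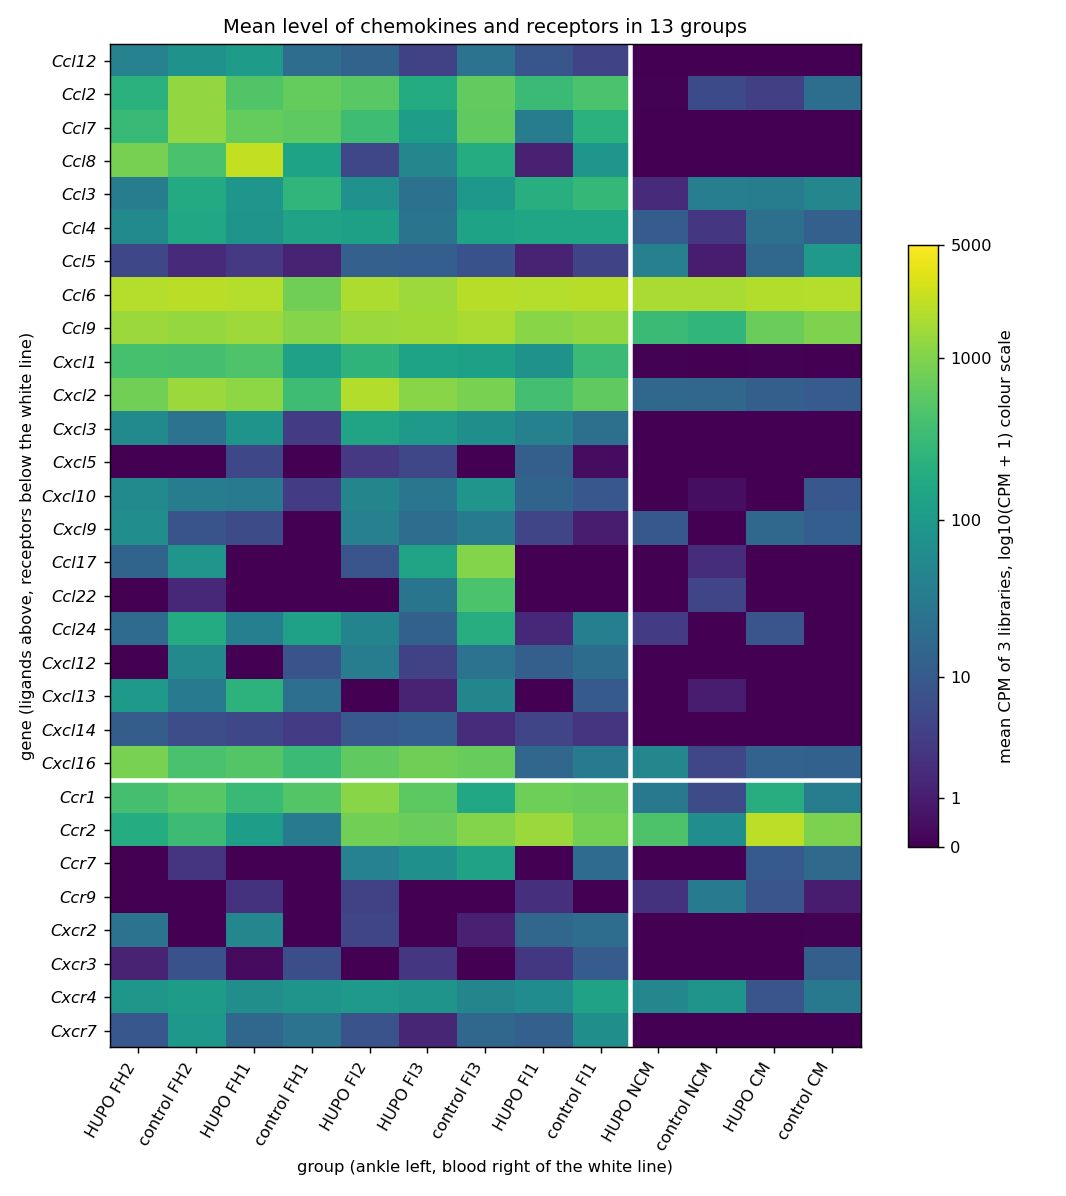
Mean CPM of 3 libraries for ligands (above the white line) and receptors (below it) that reached 10 CPM in at least 1 group, as colour on a log10(CPM + 1) scale, with ankle groups left and blood groups right. Ccl6 and Ccl9 were high in every group, whereas Ccl7 and Ccl8 had counts in ankle groups and none in blood.

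Ccl6 and Ccl9, myeloid CC chemokines that act on Ccr1, were the ligands found at a high level everywhere. Over the 39 libraries Ccl6 ranged over 717 to 2935 CPM and Ccl9 over 129 to 2010.2 CPM. In blood these 2 genes made up most of the ligand counts. All ligands summed to 2718 ± 333 CPM in HUPO CM and 3137 ± 860.4 CPM in control CM, but without Ccl6 and Ccl9 to 131 ± 23.8 CPM in HUPO CM and 225 ± 37.5 CPM in control CM (mean ± SD, n = 3 each). In NCM the sum without them was 137 ± 48.2 CPM in HUPO mice and 76.5 ± 37.1 CPM in control mice. The ankle populations held more of the other ligands. Their sum without Ccl6 and Ccl9 was 6273 ± 2212 CPM in HUPO FH1 and 2855 ± 327 CPM in control FH1. In FH2 it was 3986 ± 325 CPM in HUPO mice and 6057 ± 1162 CPM in control mice, and in FI3 it was 2806 ± 276 CPM in HUPO mice and 5394 ± 1833 CPM in control mice. HUPO FI2 had 4211 ± 724 CPM. FI1, labelled as macrophages but rich in neutrophil markers, had 1322 ± 578 CPM in HUPO mice and 2299 ± 910 CPM in control mice.

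CPM divided by annotated exon length, a rough way to compare levels of different genes, placed Ccl6 first among ligands in both arms of CM, NCM and FI1 and in HUPO FI2 and FI3. The length used can be too long: for Cxcl3 it was 3498 bases, more than the gene's span (chr5:90786101-90788093). Ccl8 came first in HUPO FH1 at 4417 ± 4156 CPM per kb and in HUPO FH2 at 1692 ± 839 CPM per kb, the first mean with an SD about as large as itself. Ccl7 came first in control FH1 at 756 ± 93.1 CPM per kb and in control FH2 at 1577 ± 459.7 CPM per kb. In control FI3 it was Ccl17, a ligand of Ccr4 made by dendritic cells and some macrophages, at 2007 ± 2083 CPM per kb, where Ccl6 had 1098 ± 331 CPM per kb and the spreads overlapped. Among receptors, Ccr2, which lets classical monocytes leave the bone marrow, came first in both arms of CM, in HUPO NCM and in control FI3. Ccr1 came first in all other ankle groups, and Cxcr4, the Cxcl12 receptor that holds cells in the bone marrow, came first in control NCM. The order of Ccr1 and Ccr2 depends on the lengths used, 2833 bases for Ccr1 and 6760 bases for Ccr2. In CPM alone Ccr2 exceeded Ccr1 in every library of HUPO FI1 and HUPO FI3, and control FI1 was split. Ccr1 exceeded Ccr2 in CPM too in every library of HUPO FI2 and of both arms of FH1 and FH2.

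Ankle macrophages (FI1, FI3, FH1 and FH2 together) were compared with blood monocytes (CM and NCM together) within each arm, the comparison that asks which chemokine genes differ between joint and circulation. HUPO ankle and blood libraries carry different mouse numbers, and so do those of control mice if a suffix marks another mouse. Tissue therefore cannot be told apart from mouse. Several ankle libraries of an arm share a number, so they are fewer mice than libraries. FI1 was rich in neutrophil markers, as given above, and their part was not tested. In HUPO mice 15 of the 35 tested genes rose and 0 fell, beside 11.2% of all genes called (6.59% higher). In control mice 17 rose and 1 fell, beside 12.7% of all genes (6.88% higher and 5.84% lower). The rises were 12 ligands and 3 receptors in HUPO mice and 14 ligands and 3 receptors in control mice. The median log2 fold change of the 35 genes was 2.91 in HUPO mice and 3.13 in control mice, where the medians of all genes were 0.20 in HUPO mice and 0.11 in control mice. Both arms called 12 of these genes higher, 80.0% of the HUPO list and 70.6% of the control list. The matching overlap over all genes was not counted, so these shares cannot be read as particular to chemokine genes. The arms share no library, but both comparisons came from 1 fit of all 39 libraries. Without the second and the third control FI1 library, which are described under FI1, 10 genes were called in control mice, beside 8.31% of all genes.

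All 4 monocyte chemoattractant proteins rose in the ankle in both arms. Ccl2 had 115, 282 and 659.6 CPM (lowest, median and highest) in 12 HUPO ankle libraries and 0, 0.224 and 9.67 CPM in 6 HUPO blood libraries. In control mice it had 296, 677 and 1514 CPM in the ankle and 0, 12.1 and 26.4 CPM in blood. Every ankle library lay above every blood library of its arm (log2 fold change 9.09 with SE 0.80, adjusted p = 7.72e-10 in HUPO mice and 6.01 with SE 0.63, adjusted p = 1.33e-08 in control mice). Ccl7 had 8.54, 195 and 1051 CPM in the HUPO ankle and 7.01, 646 and 1641 CPM in the control ankle, and all 12 blood libraries had none. Against a floor of 3 counts over the blood libraries it was at least 3649-fold higher in the HUPO ankle (adjusted p = 1.55e-08) and at least 12324-fold higher in the control ankle (adjusted p = 1.15e-09). Ccl8 and Ccl12 had no counts in blood either. Ccl8 averaged 793 ± 1327 CPM in the HUPO ankle and 213 ± 204 CPM in the control ankle, and Ccl12 averaged 40.6 ± 65.3 CPM in the HUPO ankle and 31.8 ± 39.9 CPM in the control ankle (n = 12 each). Their adjusted p values were 8.09e-05 for Ccl8 and 0.00203 for Ccl12 in HUPO mice, and 2.39e-05 for Ccl8 and 0.00137 for Ccl12 in control mice. Single libraries carried some of these calls: the adjusted p of Ccl8 in HUPO mice was 1 without the third HUPO FI1 library, and that of Ccl12 in control mice was 1 without the second control FI1 library. By limma that of Ccl8 was 0.0943 in HUPO mice and 0.0548 in control mice with mouse number as a random block, and 0.096 in HUPO mice and 0.0586 in control mice without it.

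**Figure D2:**
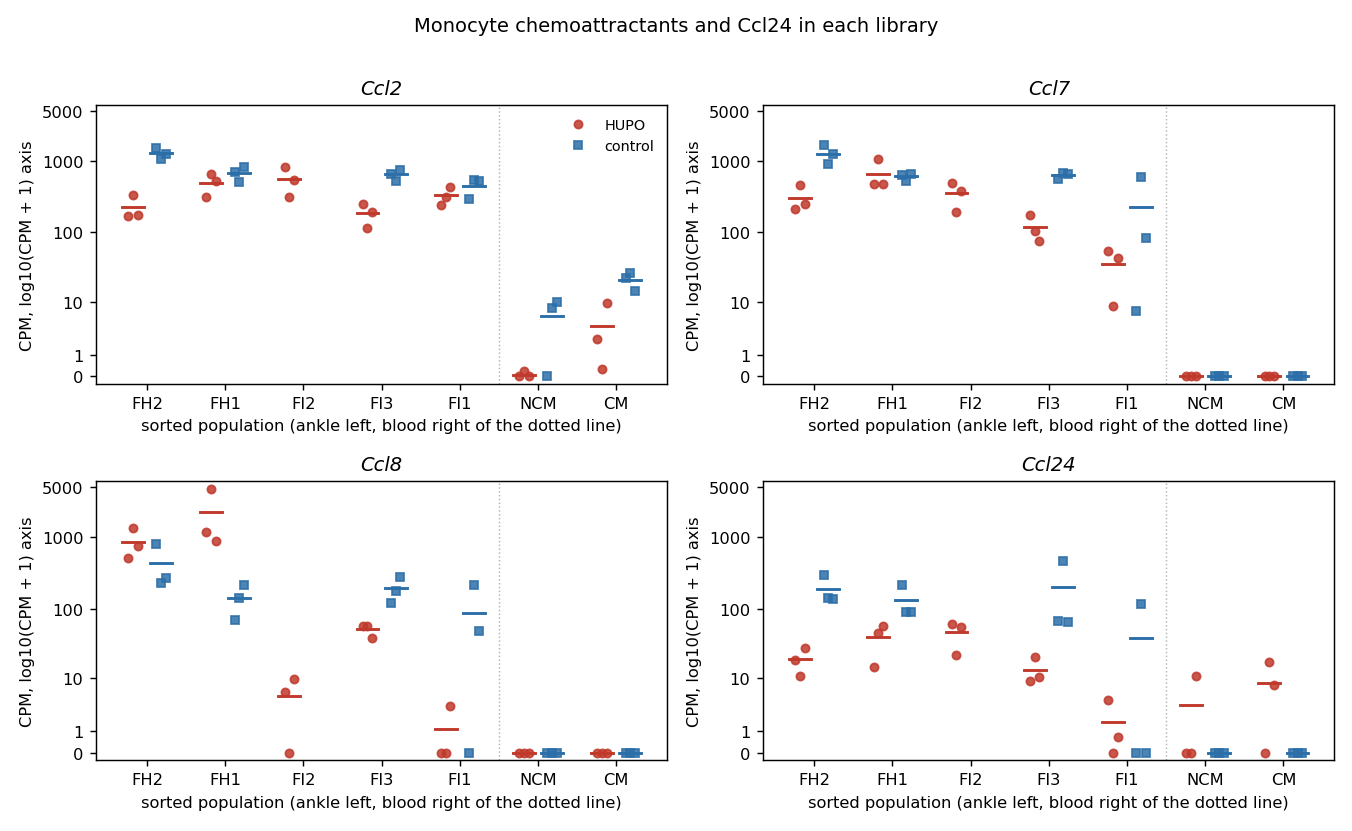
CPM of Ccl2, Ccl7, Ccl8 and Ccl24 in each library, by population, on a log10(CPM + 1) axis, with HUPO libraries (red circles) left of control libraries (blue squares) and a bar at each mean of 3. In FI3 and FH2 all HUPO libraries of Ccl2 and Ccl7 sit below all control libraries, and Ccl8 reaches 4704 CPM in 1 HUPO FH1 library.

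Cxcl1, Cxcl2 and Cxcl3, the neutrophil attractants, rose in the ankle in both arms as well. Their genes lie in 1 cluster on chromosome 5, and the 120 bases before each start are printed because all 3 carry the same match to the kappa B consensus, the binding motif of the NF-kappa B factors. Beside them stand the windows of Ccl9, which rose less, and of its neighbour Ccl6, which was called in neither arm. The sequences are RefSeq's for GRCm38.p6 (mm10), read in the direction of the gene, and capitals mark the bases that match the consensus.
Cxcl1 (chr5:90891125-90891244, + strand): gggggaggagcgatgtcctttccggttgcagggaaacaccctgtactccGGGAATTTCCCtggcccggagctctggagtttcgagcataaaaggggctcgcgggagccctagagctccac
Cxcl2 (chr5:90903779-90903898, + strand): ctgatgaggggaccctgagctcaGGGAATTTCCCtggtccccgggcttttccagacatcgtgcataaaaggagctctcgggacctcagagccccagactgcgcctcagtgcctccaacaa
Cxcl3 (chr5:90785981-90786100, + strand): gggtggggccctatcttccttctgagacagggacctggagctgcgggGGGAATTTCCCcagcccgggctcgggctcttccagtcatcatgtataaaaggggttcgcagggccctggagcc
Ccl9 (chr11:83578637-83578756, - strand): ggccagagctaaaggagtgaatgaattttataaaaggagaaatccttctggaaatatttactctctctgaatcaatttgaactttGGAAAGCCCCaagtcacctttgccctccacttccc
Ccl6 (chr11:83593088-83593207, - strand): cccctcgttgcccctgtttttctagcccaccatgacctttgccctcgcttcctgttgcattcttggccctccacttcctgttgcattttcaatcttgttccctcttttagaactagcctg
The match began 71 bases before the start in Cxcl1, 97 in Cxcl2 and 73 in Cxcl3, with the same letters in each and a second, overlapping match 1 base further on. Ccl9 had 1 match of other letters 35 bases before its start, and the Ccl6 window had none. In RefSeq windows of 300 bases (250 before to 50 after the start), searched on both strands with overlapping matches counted, the motif was in 11 of the 38 genes of the set with a window (28.9%), against 2581 of all 27018 genes (9.55%). It was in 8 of 25 ligands (32.0%) and 3 of 13 receptors (23.1%). Ccl8, Ccl12 and Ccl17 had no match, and windows of Ccl2, Ccl7, Ccl4 and Cxcl16 are not used here. A match describes letters and does not show that a factor binds.

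Cxcl2 had 214, 850.2 and 1416 CPM (lowest, median and highest) in the HUPO ankle and 1.74, 13.3 and 31.0 CPM in HUPO blood. In control mice it had 301, 698 and 1546 CPM in the ankle and 0, 9.86 and 32.9 CPM in blood, and ankle and blood did not overlap in either arm (log2 fold change 5.80 with SE 0.71, adjusted p = 7.22e-07 in HUPO mice and 5.80 with SE 0.71, adjusted p = 5.23e-07 in control mice). By limma its adjusted p was 0.105 in HUPO mice and 0.0678 in control mice with mouse number as a random block, and 0.103 in HUPO mice and 0.0663 in control mice without it, at log2 fold changes of 6.20 in HUPO mice and 6.96 in control mice. Cxcl1 averaged 282 ± 277 CPM in the HUPO ankle, where blood held 2 counts in all (ratio 5994, 95% counting interval 1659 to 49499, adjusted p = 1.84e-08). In the control ankle it averaged 247 ± 262 CPM and was at least 4463-fold higher than in blood, which held none (adjusted p = 4.21e-09). Its spread was wide: the control FI1 libraries alone held 13.2, 45.5 and 945 CPM. Cxcl3 averaged 69.0 ± 52.2 CPM in the HUPO ankle (adjusted p = 0.000253) and 29.6 ± 29.7 CPM in the control ankle (adjusted p = 0.000555), with no counts in blood. Its adjusted p in control mice was 1 without the second FH1 library, a fit that left control FH1 with no counts of it. Cxcl5, another ELR chemokine, was not called in either arm and was at 0 in most ankle libraries. Cxcl15, also listed as an ELR chemokine, had no counts in any library.

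**Figure D3:**
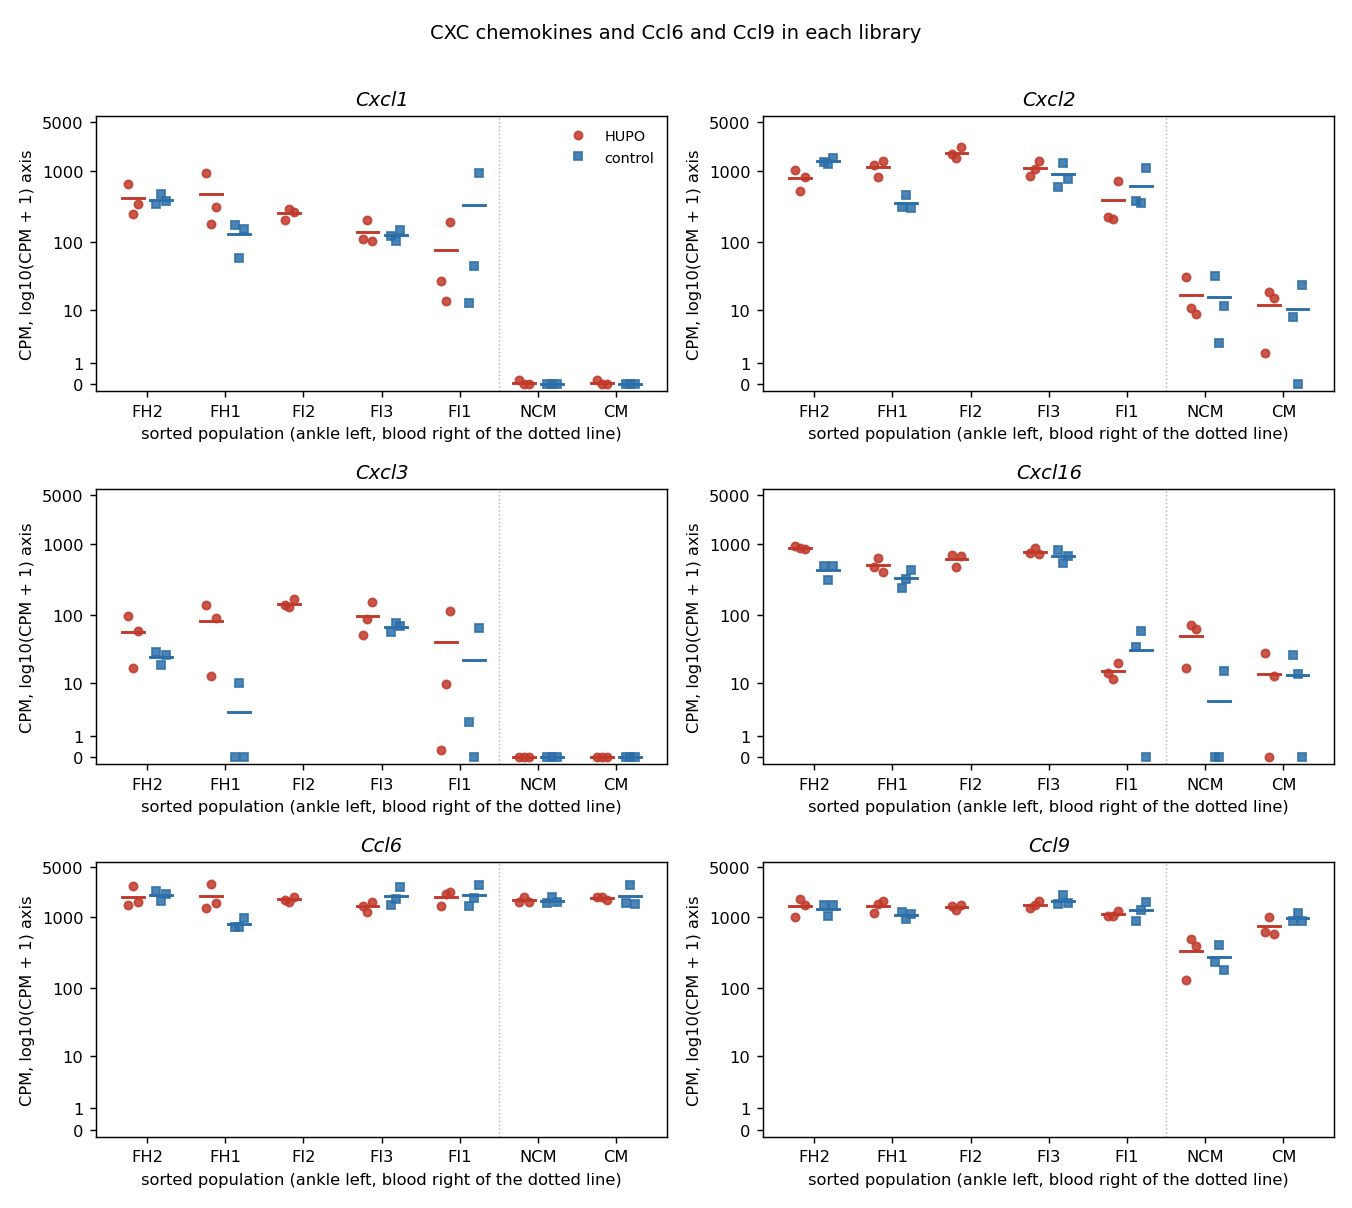
CPM of Cxcl1, Cxcl2, Cxcl3, Cxcl16, Ccl6 and Ccl9 in each library, by population, on a log10(CPM + 1) axis, with HUPO libraries (red circles) left of control libraries (blue squares) and a bar at each mean of 3. Cxcl1 and Cxcl2 separate ankle from blood, Cxcl16 is low in FI1, and Ccl6 and Ccl9 are above 100 CPM in every library.

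Among the macrophage inflammatory proteins and Ccl5, Ccl9 rose by a small fold at a high level. It had 999.8, 1389.9 and 1768 CPM (lowest, median and highest) in the HUPO ankle and 129, 531 and 1011 CPM in HUPO blood, ranges that overlapped at their ends (log2 fold change 1.45 with SE 0.21, adjusted p = 7.08e-06). In control mice it had 887, 1348 and 2010.2 CPM in the ankle and 179, 632 and 1146 CPM in blood (log2 fold change 1.37 with SE 0.21, adjusted p = 1.3e-05). Ccl3 and Ccl4, whose counts may mix, were each called in 1 arm. Ccl3 averaged 88.7 ± 103 CPM in the HUPO ankle and 19.2 ± 27.5 CPM in HUPO blood (adjusted p = 0.0123), and Ccl4 averaged 147 ± 92.3 CPM in the control ankle and 7.80 ± 6.70 CPM in control blood (adjusted p = 0.000102). Whether these effects differ between the arms was not tested. Ccl6 had 1175, 1589 and 2935 CPM in the HUPO ankle and 1604, 1825 and 1923 CPM in HUPO blood, and Ccl6 and the T cell and NK cell chemokine Ccl5 were called in neither arm.

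The remaining called ligands were uneven between libraries. Cxcl16, a membrane-bound chemokine that binds Cxcr6, averaged 548 ± 358 CPM in the HUPO ankle and 31.9 ± 28.4 CPM in HUPO blood (log2 fold change 3.37 with SE 0.97, adjusted p = 0.0209). In control mice it averaged 369 ± 259.5 CPM in the ankle and 9.23 ± 10.96 CPM in blood (log2 fold change 4.87 with SE 1.06, adjusted p = 0.00188). FI1 was the exception within the ankle, at 14.5, 11.5 and 20.4 CPM in HUPO mice and 34.1, 59.0 and 0 CPM in control mice, where every other ankle library held 239.9 CPM or more. Cxcl10, an interferon-induced ligand of Cxcr3, was called in HUPO mice, at 32.7 ± 23.5 CPM in the ankle and none in blood (adjusted p = 0.00154). Ccl24, an eotaxin that binds Ccr3, was called in control mice, at 139 ± 131 CPM in the ankle and none in blood (adjusted p = 0.0001). Its adjusted p was 1 without the second FI1 library, a fit that left control FI1 with no counts of it. Cxcl14 was called in both arms at means of 8.35 ± 5.72 CPM in the HUPO ankle and 3.71 ± 4.21 CPM in the control ankle, and Cxcl12 and the B cell attractant Cxcl13 were called in control mice.

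Of the receptors, Ccr1, which binds Ccl3, Ccl6 and Ccl9, rose in the ankle in both arms. It had 305, 488 and 938 CPM (lowest, median and highest) in the HUPO ankle and 22.8, 66.7 and 299 CPM in HUPO blood, without overlap (log2 fold change 2.67 with SE 0.66, adjusted p = 0.00621). In control mice it had 152, 492 and 867 CPM in the ankle and 0, 9.85 and 64.3 CPM in blood, also without overlap (log2 fold change 4.82 with SE 0.75, adjusted p = 2.4e-05). Cxcr7, now named Ackr3, a scavenger of Cxcl12, had no counts in blood and averaged 9.92 ± 10.9 CPM in the HUPO ankle (adjusted p = 0.0314) and 50.7 ± 62.5 CPM in the control ankle (adjusted p = 0.0085). Cxcr4 rose in HUPO mice, at 75.3 ± 14.8 CPM in the ankle and 30.0 ± 29.0 CPM in blood (log2 fold change 1.83 with SE 0.33, adjusted p = 0.000209). Ccr9, a gut-homing receptor and the single gene that fell, had counts in only 2 control blood libraries, the higher at 93.5 CPM.

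Other genes of the chemokine system were counted on the same test. Of 8 tested ligands and receptors outside the definition, 2 rose and 1 fell in the HUPO ankle, and 2 rose and 1 fell in the control ankle. Of 20 signalling genes, 2 rose and 4 fell in the HUPO ankle, and 2 rose and 7 fell in the control ankle. Of all genes, 6.59% rose and 4.61% fell in the HUPO ankle, and 6.88% rose and 5.84% fell in the control ankle. Rgs1, which shortens G protein signals, averaged 661 ± 366 CPM in the HUPO ankle and 181 ± 180.0 CPM in HUPO blood (log2 fold change 2.53 with SE 0.24, adjusted p = 3.83e-09), and 814 ± 358 CPM in the control ankle and 118 ± 106 CPM in control blood (log2 fold change 3.26 with SE 0.25, adjusted p = 2.62e-11). Outside the definition, Xcr1 and Ccrl2 rose and Ppbp fell in the HUPO ankle, and Pf4 and Cmklr1 rose and Ppbp fell in the control ankle. Ppbp, a platelet chemokine, averaged 3.72 ± 7.12 CPM in the HUPO ankle and 78.2 ± 59.1 CPM in HUPO blood, and 0.414 ± 1.43 CPM in the control ankle and 126 ± 70.4 CPM in control blood. Of the signalling genes, Rgs1 and the G protein subunit gene Gnb1 rose in both arms, and Rgs2, Grk6, Rac2 and Dpp4, whose product cleaves several chemokines, fell in both, with Adrbk1, Rgs19 and Plcb2 falling in control mice as well. Rgs1 was also called higher in NCM than in CM and in FH than in FI in both arms, in control FI3 than in FI1 and in HUPO FI2 than in FI1. Gnb1 was called higher and Rac2 lower in control FH than in FI, in control FI3 than in FI1 and in HUPO FI2 than in FI1, and Grk6 lower in HUPO FI2 than in FI1. In FH against FI, Rgs2 fell in both arms, Plcb2 fell in control mice, and in HUPO mice Dpp4 fell and Ppbp rose.

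HUPO mice were then compared with control mice population by population, to ask how chemokine genes differ in these mice with arthritis. Of the 35 genes, Ccl6 rose in FH1 and Ccl2 fell in NCM, and no other gene was called in any of the 6 populations. Several ligands were higher in every HUPO library of FH1 and several were lower in every HUPO library of FI3 and FH2. Of 525 tests of whether the HUPO effect on a gene differed between 2 populations, 1 was called, Ccl6 in FH1 against FI3 (difference of log2 fold changes 1.76, SE 0.40, adjusted p = 0.0262, beside 0.442% of all genes called). Outside the definition, the chemerin receptor Cmklr1 rose in HUPO NCM, at 40.4 ± 33.6 CPM, against no counts in control NCM, at least 346-fold higher (adjusted p = 0.0116). Of all genes, 0.843% were called in FH1, 0.651% in FH2, 1.07% in FI3, 0.225% in FI1, 0.731% in NCM and 0.562% in CM.

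In FH1, Ccl6 had 1315, 2935 and 1574 CPM in HUPO mice and 719, 717 and 959 CPM in control mice. Every HUPO library lay above every control library (log2 fold change 1.28 with SE 0.28, adjusted p = 0.0116). It was called in 3 of 6 fits that left out 1 library. The adjusted p was 0.302 without the second HUPO library and 0.159 in a fit to the 6 FH1 libraries alone. Ccl8 had 1177, 4704 and 891 CPM in HUPO FH1 and 68.1, 142 and 212 CPM in control FH1, again without overlap but uncalled (log2 fold change 4.01 with SE 1.48, adjusted p = 0.501). The neutrophil attractants were ordered the same way. Cxcl2 had 1225, 839.9 and 1416 CPM in HUPO FH1 and 316, 462 and 301 CPM in control FH1 (adjusted p = 0.692). Cxcl1 had 961, 178 and 314 CPM in HUPO FH1 and 174, 59.9 and 153 CPM in control FH1 (adjusted p = 0.692), and Cxcl3 had 140.2, 12.7 and 91.0 CPM in HUPO FH1 and 0, 10.03 and 0 CPM in control FH1 (adjusted p = 0.647).

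In all, 10 of the 35 genes had every HUPO FH1 library above every control one and 4 (Ccl3, Ccl4, Ccl24 and Ccr1) had every one below, beside 7.28% of all genes above and 8.34% below. Cxcr2, the neutrophil receptor of Cxcl1 and Cxcl2, was among those above, at 26.4, 16.9 and 111 CPM in HUPO FH1 and no counts in control FH1, at least 438-fold higher and uncalled (adjusted p = 0.306). The 9 neutrophil markers summed to 1589 to 10026 CPM in HUPO FH1 and 6.00 to 863 CPM in control FH1, with Mpo and Elane at 0 in both. Their part in these levels was not tested. Without the third HUPO FH1, the third HUPO FH2 and the second HUPO CM library, the richest of their groups in these markers, Ccl6 had a log2 fold change of 1.41 and an adjusted p of 0.017.

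In FH2 and FI3 no gene of the 35 was called, and the monocyte attractants Ccl2 and Ccl7 were ordered the other way. Ccl2 had 173, 338 and 178 CPM in HUPO FH2 and 1514, 1051 and 1264 CPM in control FH2 (log2 fold change -2.48 with SE 0.77, adjusted p = 0.248). In FI3 it had 249.1, 115 and 193 CPM in HUPO mice and 655, 532 and 754 CPM in control mice (log2 fold change -1.80 with SE 0.75, adjusted p = 0.403). Every HUPO library lay below every control library in both populations, and the same held for Ccl7. Ccl7 had 213, 454 and 249.9 CPM in HUPO FH2 and 1641, 905 and 1245 CPM in control FH2 (adjusted p = 0.603), and 177, 103 and 75.9 CPM in HUPO FI3 and 563, 678 and 648 CPM in control FI3 (adjusted p = 0.274). Ccl8 overlapped between the arms in FH2, at 504, 1339 and 750.3 CPM in HUPO mice and 797, 229 and 268 CPM in control mice (adjusted p = 1), and so did Ccl12. In FI3 Ccl8 had 57.6, 57.7 and 38.4 CPM in HUPO mice and 120.4, 176 and 279 CPM in control mice without overlap (adjusted p = 0.694), and Ccl12 overlapped there too. Cxcr2 had 0, 19.0 and 55.0 CPM in HUPO FH2 and no counts in control FH2 (adjusted p = 0.423), where the neutrophil markers summed to 267 to 4384 CPM in HUPO FH2 and 48.4 to 917 CPM in control FH2, and their part was not tested. By edgeR 5 of the 35 genes in FH2 and 3 in FI3 had an unadjusted p under 0.05, beside 7.7% of all genes in FH2 and 10.5% in FI3. DESeq2 called 3 in FH2 and 3 in FI3, beside 6.39% of all genes in FH2 and 9.87% in FI3.

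Every HUPO library was below every control library for 10 genes in FH2, beside 11.3% of all genes, and for 9 genes in FI3, all ligands, beside 7.09%. Ccl3, Ccl4, Ccl17 and Ccl24 were in both counts with Ccl2 and Ccl7. Cxcl2 was below in FH2, the other way from FH1. It had 1045, 529 and 848 CPM in HUPO FH2 and 1342, 1287 and 1546 CPM in control FH2. Ccr1 was below in FH2 too, at 347, 387 and 489 CPM in HUPO mice and 506, 496 and 641 CPM in control mice. Ccl4 had 9.54, 37.7 and 28.7 CPM in HUPO FI3 and 66.0, 53.6 and 302 CPM in control FI3 (adjusted p = 0.423). Ccl17 had 84.5, 71.0 and 271 CPM in HUPO FI3 and 359, 2266 and 469 CPM in control FI3 (adjusted p = 0.555), and Ccl22, the other Ccr4 ligand, had 18.1, 24.6 and 37.7 CPM in HUPO FI3 and 226, 847 and 279 CPM in control FI3 (adjusted p = 0.531). The 6 dendritic cell markers summed to 2.39 to 102 CPM in HUPO FI3 and 1259 to 1919.6 CPM in control FI3, with 2 of the 6 at 0 in HUPO FI3, and their part was not tested. Genes above without overlap were 3 in FH2 (Cxcl13 and Cxcl16 among them), beside 7.12% of all genes, and 3 in FI3 (Ccr1 and Cxcl14 among them), beside 10.2%. Cxcl16 had 933, 871 and 861 CPM in HUPO FH2 and 491, 311 and 490.4 CPM in control FH2 (adjusted p = 1), and Ccr1 had 579, 487 and 666 CPM in HUPO FI3 and 159, 184 and 152 CPM in control FI3 (adjusted p = 0.495).

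**Figure D4:**
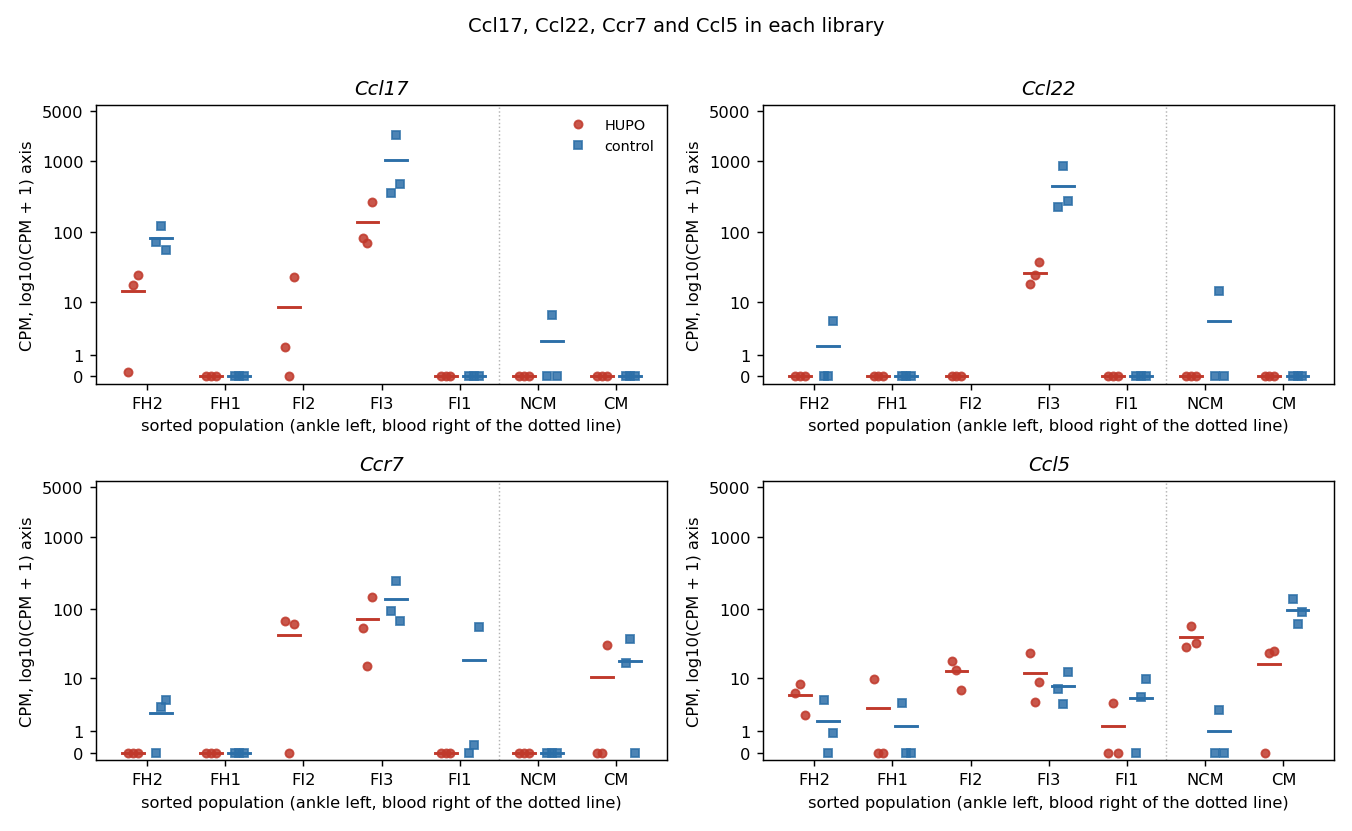
CPM of Ccl17, Ccl22, Ccr7 and Ccl5 in each library, by population, on a log10(CPM + 1) axis, with HUPO libraries (red circles) left of control libraries (blue squares) and a bar at each mean of 3. Ccl17 and Ccl22 are highest in control FI3 and lie at 0 in control FI1.

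In FI1 no gene of the 35 was called (7 had an unadjusted p under 0.05, beside 8.45% of all genes, and DESeq2 called 5, beside 7.92%). Ccl8 had 0, 0 and 3.46 CPM in HUPO FI1 and 0, 215 and 49.0 CPM in control FI1 (adjusted p = 0.181), and Ccl7 had 54.4, 8.54 and 43.1 CPM in HUPO FI1 and 7.01, 600.0 and 84.4 CPM in control FI1 (adjusted p = 0.307). The higher control values came from the second and the third library. Prg4, which encodes the joint lubricant lubricin, had 8206 CPM in the second and 8558 CPM in the third, against 5.23 CPM in the first. The other 8 fibroblast markers summed to 796 CPM in the second and 842 CPM in the third, against 607 CPM in the first, and their part was not tested. Without the second and the third library 1 control FI1 library was left, and the log2 fold change had the opposite sign without a call, at 6.18 for Ccl8 (adjusted p = 1) and 2.34 for Ccl7 (adjusted p = 0.823). For Ccl8 that library and 2 of the HUPO libraries held no counts, so its sign rests on 1 HUPO library. Cxcl13 had 0, 0 and 0 CPM in HUPO FI1 and 0, 30.2 and 0 CPM in control FI1 (adjusted p = 0.465). Cxcr4 was the only one of the 35 whose arms did not overlap, at 57.8, 74.6 and 53.3 CPM in HUPO FI1 and 145, 87.3 and 175 CPM in control FI1 (adjusted p = 0.585), beside 3.96% of all genes below.

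Over the 4 ankle populations present in both arms, 3 of the 35 genes fell in HUPO mice and 0 rose, beside 4.18% of all genes called (1.59% lower). Ccl7 averaged 281 ± 297 CPM in 12 HUPO libraries and 682 ± 442 CPM in 12 control libraries (log2 fold change -1.75 with SE 0.41, adjusted p = 0.0128). Ccl2 averaged 311 ± 159 CPM in HUPO and 762 ± 352 CPM in control libraries (log2 fold change -1.29 with SE 0.37, adjusted p = 0.0403). Ccl24 averaged 18.2 ± 17.7 CPM in HUPO and 139 ± 131 CPM in control libraries (log2 fold change -3.37 with SE 0.97, adjusted p = 0.0449). Of the signalling genes, Gnai3 fell (adjusted p = 0.0268) and Plcb2 rose (adjusted p = 0.0297). The arms overlapped for Ccl7, Ccl2 and Ccl24, and the median log2 fold change of the 35 genes was 0.04, beside 0.00 for all genes. Leaving out 1 library at a time, Ccl7 was called in 24 of 24 fits, Ccl2 in 7 of 24 (adjusted p up to 0.0844) and Ccl24 in 5 of 24. Without the second control FI1 library alone, a fit that left control FI1 with no counts of it, Ccl24 had a log2 fold change of -0.58 and an adjusted p of 1. Without the second and the third control FI1 library the adjusted p was 0.56 for Ccl7, 0.18 for Ccl2 and 1 for Ccl24. Without the 3 HUPO libraries rich in neutrophil markers it was 0.0576 for Ccl7, 0.0609 for Ccl2 and 0.095 for Ccl24. By limma with mouse number as a random block 6 of the 35 genes were called, 1 of them (Ccl2) shared with edgeR, beside 7.18% of all genes, and the adjusted p was 0.165 for Ccl7, 0.000124 for Ccl2 and 0.108 for Ccl24. By limma without the block it was 0.165 for Ccl7 and 0.0981 for Ccl24.

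In blood the arms were separated without overlap for 3 receptors and 2 ligands in NCM and for 3 receptors and 2 ligands in CM, and 1 gene was called. In NCM the single call was Ccl2, with 0, 0.176 and 0 CPM in HUPO mice and 0, 7.92 and 9.72 CPM in control mice, which is 1 count in HUPO NCM and 102 counts in control NCM (ratio 76.0, 95% counting interval 13.3 to 3031 for control over HUPO, adjusted p = 0.0108). The arms overlapped at 0, and the adjusted p was 0.0871 without the third HUPO library and 0.745 in a fit to the 6 NCM libraries alone. Ccr2 had 518, 383 and 507 CPM in HUPO NCM and 0.0718, 191 and 0.211 CPM in control NCM (log2 fold change 2.88 with SE 1.30, adjusted p = 0.493). In CM it had 2238, 2270.2 and 1876 CPM in HUPO mice and 735, 1224 and 868 CPM in control mice (log2 fold change 1.17 with SE 1.23, adjusted p = 0.984). Ccr1 had 299, 200.03 and 94.9 CPM in HUPO CM and 43.7, 64.3 and 0.894 CPM in control CM (adjusted p = 0.372).

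Every HUPO library lay above every control library for Ccr1 and Ccr2 in CM, beside 5.04% of all genes, and for genes that included Ccr1, Ccr2, Ccl5 and Cxcl16 in NCM, beside 5.33%. None of these was called, and in CM, where no gene of the 35 was, 5 had an unadjusted p under 0.05, beside 11.1% of all genes, and DESeq2 called 5, beside 10.5%. Summed over all receptors, levels were 2439 ± 333 CPM in HUPO CM and 1069 ± 282 CPM in control CM, and 613 ± 105 CPM in HUPO NCM and 203 ± 148 CPM in control NCM. In both arms of CM most of this sum was Ccr2. Monocyte markers differed between the arms of CM in both directions. Ly6c2 had 2564.5, 2341 and 3037 CPM in HUPO CM and 532, 899 and 512 CPM in control CM. Nr4a1 had 355, 521 and 396 CPM in HUPO CM and 1741.5, 2305 and 1607 CPM in control CM. Their part in the receptor levels was not tested. Cxcr4, Ccl2 and Ccl5 lay below in CM, beside 6.62% of all genes. Cxcr4 had 10.4, 5.42 and 9.67 CPM in HUPO CM and 27.5, 28.0 and 35.3 CPM in control CM (log2 fold change -1.83 with SE 0.51, adjusted p = 0.118). Ccl2 had 2.32, 0.271 and 9.67 CPM in HUPO CM and 22.3, 26.4 and 14.5 CPM in control CM (adjusted p = 0.243), and Ccl24 had 0, 17.3 and 7.66 CPM in HUPO CM and no counts in control CM (adjusted p = 0.198). Ccl24 and Ccl3 were next to the call in NCM, Ccl24 at 0, 0 and 10.6 CPM in HUPO NCM and 0, 0 and 0 CPM in control NCM (adjusted p = 0.34) and Ccl3 at 5.61, 0 and 0 CPM in HUPO NCM and 85.1, 27.9 and 0 CPM in control NCM (adjusted p = 0.128). Ccl5 had 0, 23.6 and 25.4 CPM in HUPO CM and 136, 60.2 and 88.6 CPM in control CM (adjusted p = 0.922). The 7 T cell markers summed to 0.271 to 31.7 CPM in HUPO CM and 159 to 397 CPM in control CM, and their part in the Ccl5 level was not tested.

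**Figure D5:**
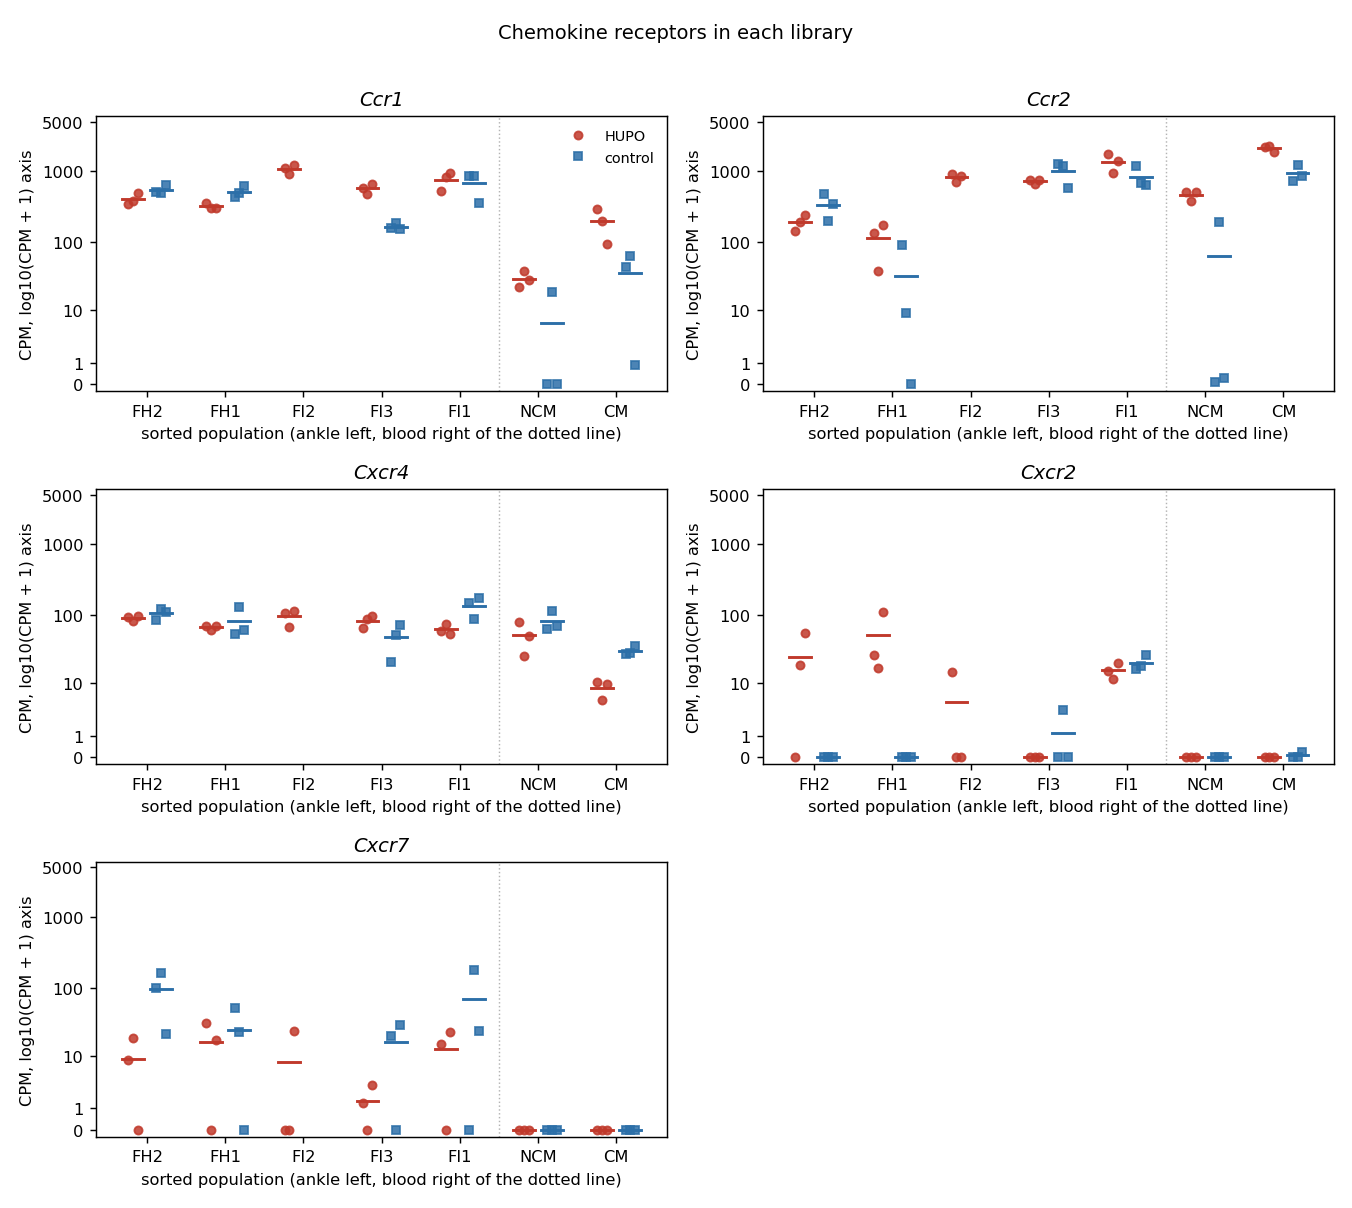
CPM of Ccr1, Ccr2, Cxcr4, Cxcr2 and Cxcr7 in each library, by population, on a log10(CPM + 1) axis, with HUPO libraries (red circles) left of control libraries (blue squares) and a bar at each mean of 3. HUPO libraries of Ccr1 and Ccr2 sit above control libraries in both blood populations, and Ccr2 is lower in FH than in FI macrophages.

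Non-classical monocytes were compared with classical monocytes within each arm. Cxcr4 rose in HUPO NCM, at 79.2, 25.8 and 49.2 CPM in NCM and 10.4, 5.42 and 9.67 CPM in CM, without overlap (log2 fold change 2.59 with SE 0.53, adjusted p = 0.00583, and 0.0471 without the second CM library, where it was still called). Without that library and the third HUPO FH1 and FH2 libraries together, the adjusted p was 0.0755. In control mice it had 63.3, 114 and 68.9 CPM in NCM and 27.5, 28.0 and 35.3 CPM in CM, also without overlap but uncalled (log2 fold change 1.44 with SE 0.50, adjusted p = 0.262). Ccl9 fell in control NCM, at 230.1, 397 and 179 CPM in NCM and 866, 1146 and 877 CPM in CM (log2 fold change -1.84 with SE 0.33, adjusted p = 0.00133), and in HUPO mice it had 129, 493 and 383 CPM in NCM and 616, 1011 and 569.8 CPM in CM (adjusted p = 0.087). Ccl2 fell in HUPO NCM, at 1 count in NCM and 71 counts in CM (ratio 68.9, 95% counting interval 11.97 to 2758 for CM over NCM, adjusted p = 0.0176, and 0.194 without the third CM library, with 2 of 6 such fits calling it). Ccr2 had 0.0718, 191 and 0.211 CPM in control NCM and 735, 1224 and 868 CPM in control CM, and it lay below CM in every NCM library of both arms without a call (adjusted p = 0.496 in HUPO mice and 0.27 in control mice). The calls were 1 higher and 1 lower in HUPO mice, beside 1.21% of all genes, and 1 lower in control mice, beside 0.884%. Both populations carry the same mouse numbers, and with the number as a block none of the 35 was called in either arm, at 2 residual degrees of freedom (adjusted p = 0.849 for Cxcr4 and 0.849 for Ccl2 in HUPO mice and 0.234 for Ccl9 in control mice).

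FH macrophages (FH1 and FH2) were compared with FI macrophages (FI1 and FI3) within each arm. In HUPO mice 3 ligands rose and no gene of the 35 fell, beside 1.98% of all genes called. Ccl8 had 504, 1034 and 4704 CPM (lowest, median and highest) in HUPO FH and 0, 20.9 and 57.7 CPM in HUPO FI (log2 fold change 7.45 with SE 1.25, adjusted p = 0.00136). Ccl7 had 213, 462 and 1051 CPM in HUPO FH and 8.54, 65.2 and 177 CPM in HUPO FI (log2 fold change 2.80 with SE 0.61, adjusted p = 0.0108). Cxcl13, which attracts B cells through Cxcr5, had 57.9, 112 and 457 CPM in HUPO FH and 0, 0 and 4.07 CPM in HUPO FI (log2 fold change 9.94 with SE 2.31, adjusted p = 0.0203). FH and FI did not overlap for these 3 genes, beside 1.51% of all genes above, and Ccl8 and Ccl7 kept their calls in each of 12 fits that left out 1 library. Cxcl13 kept its call in 7 of the 12, with an adjusted p of up to 0.0833 without the first FI1 library, and with mouse number as a block 5 of the 35 genes were called, beside 2.24% of all genes. Ccr2 lay below FI in every FH library, at 38.2, 157 and 240.0 CPM in HUPO FH and 660.0, 858 and 1746 CPM in HUPO FI, and was not called (adjusted p = 0.146). The neutrophil markers summed to 17778 to 25960.3 CPM in HUPO FI1 and 465 to 1401 CPM in HUPO FI3. In HUPO FH1 they summed to 1589 to 10026 CPM and in HUPO FH2 to 267 to 4384 CPM, and their part was not tested.

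In control mice the same 3 ligands overlapped between FH and FI and were not called. Ccl8 had 68.1, 220.4 and 797 CPM in control FH and 0, 148 and 279 CPM in control FI (adjusted p = 0.79). Whether the effect differs between arms was not tested. The single control call was Cxcr2, with no counts in 6 FH libraries and 0, 9.92 and 26.3 CPM in FI, at least 174-fold lower (adjusted p = 0.0475, beside 3.94% of all genes). FI1 held 16.3, 18.1 and 26.3 CPM of it and FI3 held 0, 3.57 and 0 CPM, where the neutrophil markers summed to the values given for control FI1 and to 0.231 to 9.12 CPM in control FI3, and their part was not tested. It kept its call in 2 of 12 fits that left out 1 library. Its adjusted p was 1 without the second FI3 library, a fit that left control FI3 with no counts of it. With mouse number as a block its adjusted p was 0.577. Ccr2 had 0, 146 and 478 CPM in control FH and 586, 942 and 1259 CPM in control FI, without overlap or call (log2 fold change -3.12 with SE 0.93, adjusted p = 0.0544). Ccl6 averaged 1419 ± 713 CPM in control FH and 2002 ± 583 CPM in control FI (adjusted p = 0.0562). Outside the definition, Pf4, a CXC chemokine of platelets that some macrophages also make, rose in HUPO FH at 1896 ± 1299 CPM, against 69.5 ± 78.4 CPM in HUPO FI (log2 fold change 5.99 with SE 1.07, adjusted p = 0.00109).

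Within control FH macrophages, FH2 was set against FH1. Ccl6 rose, at 2295, 1690.2 and 2133 CPM in FH2 and 719, 717 and 959 CPM in FH1 (log2 fold change 1.35 with SE 0.28, adjusted p = 0.0128, beside 0.394% of all genes called). It was called in 2 of 6 fits that left out 1 library. Without the first FH1 library its adjusted p was 0.131. The comparison of HUPO with control FH1 uses the same control FH1 libraries, so the 2 calls of Ccl6 share them. Of the 35 genes, 10 had every FH2 library above every FH1 library and 0 had every one below, beside 7.42% of all genes above and 5.96% below. Ccl17 had 72.8, 121 and 56.7 CPM in control FH2 and no counts in control FH1, at least 713-fold higher and uncalled (adjusted p = 0.128). Cxcl2 had 1342, 1287 and 1546 CPM in control FH2 and 316, 462 and 301 CPM in control FH1 (adjusted p = 0.874), and Cxcl9, an interferon-induced Cxcr3 ligand, had 8.65, 0 and 16.2 CPM in control FH2 and 0, 0 and 0 CPM in control FH1 (adjusted p = 0.822).

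Within control FI macrophages, FI3 was set against FI1. Ccl17 had 359, 2266 and 469 CPM in FI3 and no counts in FI1, at least 5917-fold higher (adjusted p = 0.012, beside 1.94% of all genes called). Without the third FI1 library its adjusted p was 0.0538, and without the second and the third it was 0.278. Ccl22 had 226, 847 and 279 CPM in FI3 and no counts in FI1, at least 2586-fold higher and uncalled (adjusted p = 0.0638). Ccr7, which guides dendritic cells to lymph nodes, had 92.3, 247 and 67.3 CPM in FI3 and 0, 0.288 and 54.7 CPM in FI1 (adjusted p = 0.791). Cxcr4 had 20.8, 51.6 and 71.7 CPM in FI3 and 145, 87.3 and 175 CPM in FI1 (adjusted p = 0.153). The dendritic cell markers summed to the values given above in control FI3 and to 14.1 to 127 CPM in control FI1. The neutrophil markers summed to 0.231 to 9.12 CPM in control FI3 and 16379 to 23081 CPM in control FI1. The part of either list was not tested.

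FI2, given for HUPO mice only, was set against HUPO FI1 and HUPO FI3. No gene of the 35 was called in either comparison, beside 0.9% of all genes against FI1 and 0.00803% against FI3. An unadjusted p under 0.05 was found for 7 genes against FI1 and 8 against FI3, beside 10.8% of all genes against FI1 and 6.35% against FI3. DESeq2 called 5 against FI1 and 3 against FI3, beside 10.5% of all genes against FI1 and 6.89% against FI3. With mouse number as a block 1, Cxcl16, was called against FI1, beside 0.0175% of all genes. Every FI2 library lay above every FI1 library for 9 ligands and below for 2 genes (Ccl3 and Ccr2), beside 8.53% of all genes above and 10.8% below. The neutrophil markers summed to 3032 to 6288 CPM in FI2 and 17778 to 25960.3 CPM in FI1, and their part was not tested. Cxcl2 had 1772, 1568 and 2200.3 CPM in FI2, against 226, 214 and 732 CPM in FI1 (adjusted p = 0.359) and 853, 1083 and 1403 CPM in FI3 (adjusted p = 1). Cxcl16 had 695, 481 and 680.4 CPM in FI2 and 14.5, 11.5 and 20.4 CPM in FI1 (adjusted p = 0.133). Ccl7 had 495, 194 and 378 CPM in FI2 and 54.4, 8.54 and 43.1 CPM in FI1 (adjusted p = 0.0832), and Ccl17 had 1.59, 0 and 23.5 CPM in FI2 and 0, 0 and 0 CPM in FI1 (adjusted p = 0.246). Against FI3, Ccl22 had no counts in FI2 and 18.1, 24.6 and 37.7 CPM in FI3, at least 221-fold lower and uncalled (adjusted p = 0.715). Cxcr2 had 14.9, 0 and 0 CPM in FI2 and 0, 0 and 0 CPM in FI3 (adjusted p = 0.724), and Ccl25, a ligand of Ccr9, had 0, 0 and 0 CPM in FI2 and 5.79, 0 and 3.78 CPM in FI3 (adjusted p = 0.724).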

How the data were processed

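RNA of more than 400 sorted cells a library was made into libraries with SMART-Seq v4 and Nextera XT and read on a NextSeq as single reads of 75 bases, per the labels' protocols. The deposited values are whole-number counts per gene and library, made by the authors and not normalized. The submitters' processing notes name mm10, FastQC, STAR, HTSeq and Cufflinks. The treatment of reads that map to several places is not given in the sources used here, so Ccl21a, Ccl21b, Ccl21c, Ccl27a and Ccl27b, which have near-identical copies, are uncertain.

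All 39 libraries (13 groups) were fitted together with edgeR 4.0.16 in R 4.3.3 (TMM scaling, filterByExpr over the 13 groups, trended dispersion, robust quasi-likelihood test, 2-sided), with 26 residual degrees of freedom. P-values were adjusted over all 12450 genes. CPM used each library's total over those genes times its TMM factor. Alternatives were DESeq2 1.42.0, its size factors, other filters, fits to the compared groups alone, leaving out libraries, and blocks for the mouse number, with limma 3.58.1 for a random block. Leaving out 3 HUPO libraries rich in neutrophil markers and limma without the block were chosen after seeing the data. The scripts were tested on simulated data with a spread below the median spread of these data, so that test does not measure how well changes are found here. Where a group had no counts, a floor of 3 counts over the group gave the bound, and counting intervals and floors cover counting error only. Nothing in the labels says that each library is a separate animal beyond the number in its title, so p-values measure the spread between these libraries.

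The genes and gene lists were chosen with earlier results of these data known. Except for 1 gene of the set, which is not reported here but is kept in all counts, every gene called in a comparison is named or, beyond 12, at least the 12 of lowest p, and where fewer than 3 were called the 3 of lowest p are named with their values. Further genes were named after their values were seen. Same-numbered libraries of different populations were checked for shared deviations: over 36 pairs the correlation ran from -0.0139 to 0.0461, with 0 pairs over 0.1.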

Additional observations from a re-analysis of the deposited data

Results flagged for a closer look

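The HUPO effect on Ccl6 in FH1 minus that in FI3 was 1.76 on the log2 scale (SE 0.40, adjusted p = 0.0262 over all genes by edgeR's quasi-likelihood test), a difference between 2 populations under the same contrast. It was the 1 call among 525 such tests, for 35 genes over 15 pairs of populations. The adjustment was over genes within each pair and not over the pairs. These differences were not among the 17 comparisons refitted with the alternatives.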

How the results depend on the processing

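The calls of lowest p in each comparison, 38 in all, were followed by gene through the alternatives. Of these 38, 25 held in every fit that left out 1 library, 21 in every other setting and 19 in both. Some further calls named for ankle against blood are outside this count. They are Cxcl16 in HUPO mice, Cxcl12, Cxcl13 and Ccr9 in control mice, and Cxcl14 and Cxcr7 in both arms. DESeq2 called more of the 35 genes than edgeR in most comparisons, and more of all genes too (4.46% to 26.9% over the 17 comparisons). For HUPO against control it called 5 in CM, 8 in NCM, 5 in FI1, 3 in FI3, 5 in FH1, 3 in FH2 and 10 over the 4 ankle populations. Beside these stood 10.5% of all genes in CM, 8.95% in NCM, 7.92% in FI1 and 9.87% in FI3. In FH1 the share was 6.61%, in FH2 6.39% and over the 4 ankle populations 15.3%. For NCM against CM DESeq2 called 7 in HUPO mice (12.1% of all genes) and 9 in control mice (10.3%). For FH against FI it called 7 in HUPO mice (10.6%) and 5 in control mice (14.9%). For control FH2 against FH1 it called 4 (4.46%) and for control FI3 against FI1 6 (13.5%). For FI2 it called 5 against FI1 (10.5%) and 3 against FI3 (6.89%). Fits to the compared groups alone called 0 for HUPO against control in NCM (0.109% of all genes) and 3 in FI3 (0.947%). They called 3 in FH2 (1.19%) and 5 over the 4 ankle populations (5.62%). For NCM against CM they called 1 in HUPO mice (0.219%) and 0 in control mice (0.235%). They called 7 for HUPO FH against FI (3.99%) and 3 for control FH2 against FH1 (0.336%). For control FI3 against FI1 they called 2 (0.723%) and for FI2 against FI1 1 (1.36%). For control FH against FI, DESeq2 size factors gave 3 (3.96% of all genes) and no filter on low counts 0 (2.97%). There a minimum of 10 CPM in 3 libraries gave 3 (4.91%). Without the second and the third control FI1 library, counts were 0 over the 4 ankle populations, 10 for control ankle against blood and 2 for control FH against FI, and HUPO against control in FI1 had 1 control library left and log2 fold changes of the opposite sign, uncalled, at 6.18 for Ccl8 (adjusted p = 1) and 2.34 for Ccl7 (adjusted p = 0.823). The second HUPO CM, the third HUPO FH1 and the third HUPO FH2 library (rich in neutrophil markers) were left out together as well. Counts were then 0 over the 4 ankle populations (3.17% of all genes) and 1 for HUPO NCM against CM (0.683%). With mouse number as a block, counts for NCM against CM were 0 in HUPO mice (0.0365% of all genes) and 0 in control mice (0.0%). For FH against FI they were 5 in HUPO mice (2.24%) and 0 in control mice (0.261%). The count was 1 for FI2 against FI1 (0.0175%), and 6 over the 4 ankle populations (random effect, limma, 7.18%). By limma without the mouse number, added after seeing the data, the count over the 4 ankle populations was 6 as well (7.54% of all genes). Cxcl2 and Ccl8 for ankle against blood in both arms lost their calls with and without the block. So did Ccl7 and Ccl24 over the 4 ankle populations, and the estimated correlation of the block was 0.0184. Same-numbered libraries showed correlations of deviations from -0.0139 to 0.0461 across populations. Pairs of different numbers were not set beside them, so this check cannot show whether the numbers mark mice. These blocks rest on the titles alone. Leaving out 1 library at a time, counts ran from 0 to 1 for HUPO against control in CM, 0 to 4 in NCM, 0 to 2 in FI1, 0 to 1 in FH1 and 1 to 3 over the 4 ankle populations. They ran from 1 to 2 in HUPO and 1 to 4 in control mice for NCM against CM, 0 to 2 for control FH against FI, 0 to 1 for control FH2 against FH1 and 0 to 3 for control FI3 against FI1. Shares of all genes were not set beside these ranges, nor here beside the counts without the second and the third control FI1 library. Those counts are therefore no result about chemokine genes in particular. The causes were not tested. Depth limits the low genes: 3 counts over a group are 0.105 to 0.179 CPM, and lower levels rest on 1 or 2 counts.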
